A study of Homo sapiens with 7 samples.

Results

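Fibroblast lines that carry different lamin A products were compared gene by gene, a prelamin A line on 3 arrays and a progerin line on 2. These are 5 of the 7 Affymetrix arrays of the study, and the other 2 are controls, which were used here to tell which line stood apart from control cells. The paper calls the lines isogenic, names 2 primary dermal fibroblast lines from healthy newborns and does not say which was put on the arrays. Total RNA was taken at passage 10. The prelamin A line expressed elevated wild-type prelamin A from a lentivirus and was measured alone, after treatment with the farnesyltransferase inhibitor (FTI) L-744832 (10 nM, 48 h), and with added expression of the protease ZMPSTE24. The progerin line expressed progerin and was measured alone and with the same FTI. Each of these 5 conditions has 1 array, so the arrays of a line differ in treatment and are not repeats of 1 condition. Values of the prelamin A line are given below in the order alone, with FTI, with ZMPSTE24, and those of the progerin line in the order alone, with FTI. The labels give the controls no treatment and do not say whether they carried a vector, and 1 title, that of the array of prelamin A cells given FTI, omits prelamin A, which its source and treatment labels name. Nothing in the labels says that the arrays came from separate cultures, so the p-values speak only for the variation among these arrays, and that variation may be technical.

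Lamin A is made as a precursor, prelamin A, which is farnesylated at its C-terminus and then cut by ZMPSTE24 to release mature lamin A, a filament protein of the nuclear lamina. Progerin, the product of the common progeria mutation in LMNA, lacks the ZMPSTE24 cleavage site and keeps its farnesyl group for good. A cell with excess prelamin A can therefore still mature part of it, while a cell with progerin cannot, and FTI blocks the farnesyl step in both. The comparison asks which genes separate the cells with the precursor from the cells with the truncated protein.

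The values are MAS 5.0 signals, 1 per probe set and array, in arbitrary units. Each gene was represented by its brightest probe set, 12726 genes that reached a signal of 100 on 1 array or more were tested, and differences are on the log2(signal + 16) scale, which understates the change of dim genes. No gene passed an adjusted p under 0.05 between the lines (0% of the genes tested, smallest adjusted p = 0.177 from limma), with 1090 genes higher and 1338 lower in the prelamin A line at an unadjusted p under 0.05. In the same fit 6.28% of genes passed an adjusted p under 0.05 between the prelamin A line and the controls (483 higher, 316 lower) and 1.05% between the progerin line and the controls (100 higher, 34 lower). The text below therefore uses a wider call: a gene is called higher or lower when the lines differ by over 2-fold at an unadjusted p under 0.05 from limma and no array of one line overlaps those of the other. It took 239 genes as higher in the prelamin A line (1.88% of those tested) and 249 as lower (1.96%), 488 in all (3.83%), and these shares are the background for every count of a gene group. No call below is corrected for the number of genes tested. With each array centred on its median the split was 310 higher and 181 lower, so that 63.1% were higher in place of 49%. Median signals ran from 64.9 to 77.0 units. The 3' to 5' ratio of β-actin, a sign of RNA quality, was 1.617, 1.263 and 1.498 in the prelamin A line and 1.169 and 1.117 in the progerin line. It was 1.244 and 1.057 on the controls. The GAPDH ratio was 0.8607, 0.9025 and 0.8922 in the prelamin A line and 0.9284 and 0.925 in the progerin line. On the controls it was 0.8794 and 0.9429. Against the progerin line the prelamin A line was thus higher by β-actin and lower by GAPDH. The part of these ratios in the results was not tested. The summed signal of 14 fibroblast markers lay between 300300 and 366200 units on every array.

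The largest differences were in genes that were high with prelamin A and low with progerin. DLX2, a homeobox transcription factor of the developing forebrain and jaw (chromosome 2, 172099438 to 172102900 in GRCh38.p14), read 963, 652 and 82.9 units in the prelamin A line, 13.7 and 2.98 in the progerin line and 60.8 and 51.2 on the controls. It was the only called gene at which the lines departed from the controls in opposite directions, with a difference between the lines of 4.08 (standard error 0.92, unadjusted p = 0.00364 from limma). The other DLX2 probe set that reached 100 units read 94.5, 69.7 and 26 units in the prelamin A line, 64.6 and 46.4 in the progerin line and 101 and 10.2 on the controls, a difference of 0.05, so that the probe sets of this gene disagree. The long noncoding RNA SPRY4-IT1 had the smallest p of all genes, 2.53e-05 from limma, at a difference of 3.23 (standard error 0.31). It read 335, 319 and 162 units in the prelamin A line against 14.7 and 11.9 in the progerin line and 16.9 and 13.0 on the controls, so the progerin line and the controls lay together near the bottom of the scale. GULP1, an adaptor protein for the uptake of dead cells, read 7103, 3881 and 7754 units against 980 and 979 (controls 1420 and 1053), a difference of 2.59 (standard error 0.32), and MYZAP, a junctional protein, read 227, 182 and 182 against 66.6 and 70.4 (controls 84.6 and 70.0).

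Several of the genes with a large difference are best known from neurons. SNAP25, a vesicle fusion protein of the synapse, read 579, 723 and 268 units against 9.71 and 73.7, with 2.42 and 4.74 on the controls (difference 3.38, standard error 0.60). BEX1 read 3038, 3226 and 2259 units against 299.6 and 303 (controls 127 and 24.2), SLITRK5, a synaptic adhesion protein, 107, 148 and 90.7 against 16.5 and 5.71, and GAD1, which makes the transmitter GABA, 203, 265 and 91.0 against 39.1 and 25.6. All 4 were higher on each prelamin A array than on either progerin array and either control. Of 7 measured markers of neurons and glia 2 were called higher, SNAP25 and NEFL, while the markers NEFH, SYP, GFAP and S100B were below 100 units on all 7 arrays. The summed signal of the list was 35680 to 41130 units in the prelamin A line, 35250 and 35470 in the progerin line and 13630 and 17630 on the controls. NEFL, NEFM and INA are also on the list for HEK293 cells, the kidney-derived cells in which lentiviruses are commonly made, so the lists are not separate readings. All 5 measured markers of the HEK293 list, which include these shared genes, had a positive difference (median 0.655) and 1 was called. SOX2, LIN28B and LHX1 were below 100 units on every array. The summed signal of that list was 1252, 1279 and 939.5 units in the prelamin A line, 801.1 and 885.8 in the progerin line and 381.4 and 427.4 on the controls, so that it moved with the lines. The part of other cell types in these genes was not tested.

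**Figure D1:**
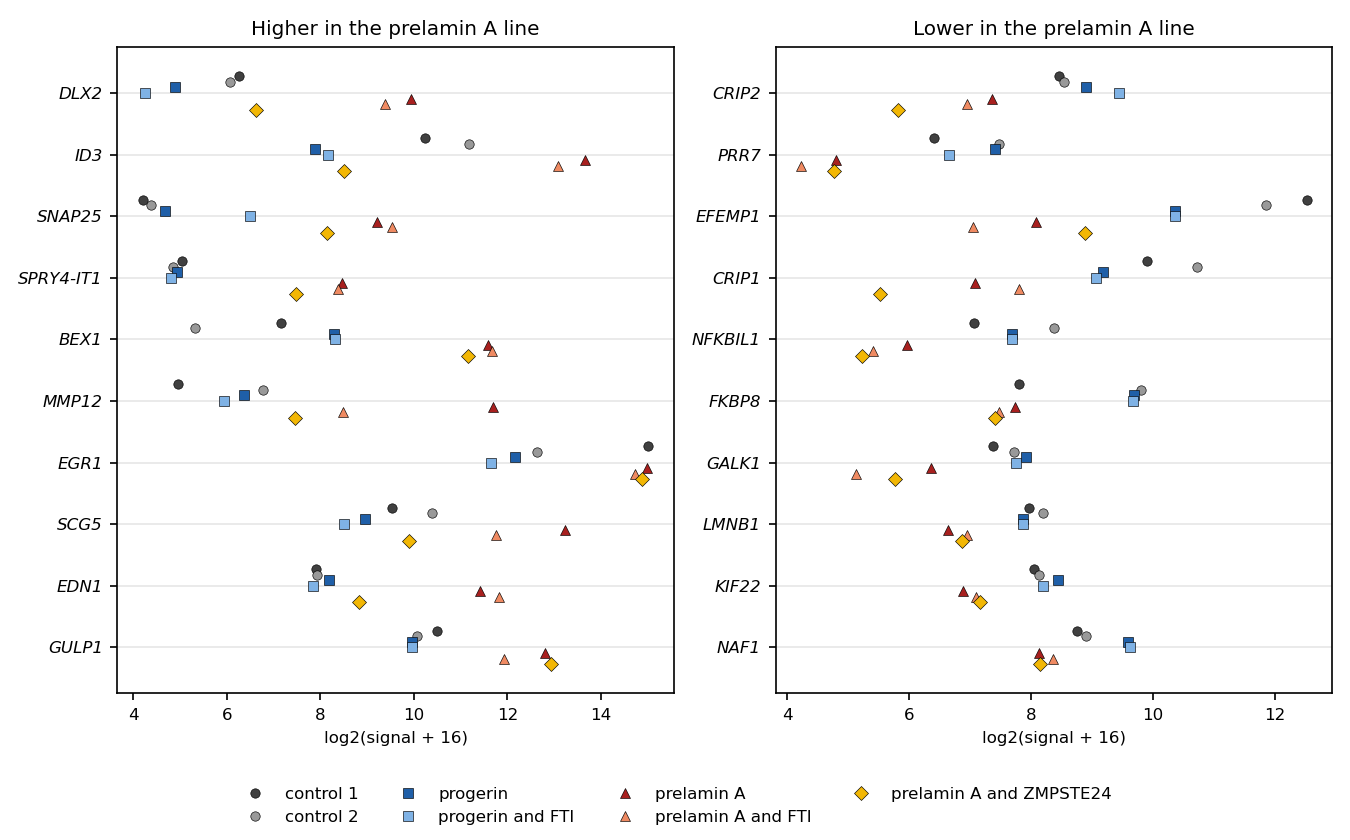
Log2(signal + 16) of 10 genes higher (left) and 10 genes lower (right) in the prelamin A line, with 1 symbol per array: circles for the controls, squares for the progerin line, triangles and diamonds for the prelamin A line. Progerin and prelamin A arrays do not overlap at any of the 20 genes, and the diamond of the ZMPSTE24 array lies close to the progerin squares for ID3 (348 units) and with the prelamin A triangles for EGR1 (30271 units).

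The genes lower in the prelamin A line with the largest differences included LIM-domain, matrix and chaperone genes. CRIP2, a LIM-domain protein, read 149, 108 and 40.6 units against 464 and 680 (controls 337 and 359), a difference of -2.46 (standard error 0.44). The related CRIP1 read 120, 207 and 30.2 units against 568 and 520 (controls 946 and 1677). EFEMP1, which encodes a fibulin of the extracellular matrix, read 255, 116 and 461 units against 1303 and 1309, with 5882 and 3705 on the controls, so both lines were below control and the prelamin A line farther. By smallest p the leading lower gene was NAF1, needed to assemble the box H/ACA ribonucleoproteins that include telomerase, with 266, 314 and 270 units against 753 and 779 (controls 418 and 462). Its difference was -1.39 (standard error 0.14, unadjusted p = 4.31e-05 from limma). The kinesin KIF22 read 103, 121 and 128 units against 332 and 280 (controls 250 and 265), with its other probe set at -0.36, and GALK1, which phosphorylates galactose, read 65.9, 19.2 and 39.0 against 225 and 201 (controls 150 and 195). The immunophilin FKBP8 and the collagen chaperone FKBP10 were also lower, by differences of -2.14 and -2.08, with controls of 209 and 883 units for FKBP8 and of 1008 and 4552 for FKBP10.

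A line was said to depart from control when all its arrays lay on 1 side of both controls and its mean was over 1 away on the log2 scale. Of the 488 called genes, the prelamin A line alone departed at 178 (36.5%; 92 where it was the higher line and 86 where it was the lower), the progerin line alone at 69 (14.1%; 39 and 30), both on the same side at 36 and on opposite sides at 1. At the other 204 neither line departed. Among all genes tested the prelamin A line alone departed at 637 (5.01%), the progerin line alone at 379 (2.98%) and neither at 11198 (88%). Both departed on the same side at 511 of all genes (4.02%). The call needs a difference of over 2-fold between the lines, so it leaves out genes at which both moved alike. Of the 36 genes on the same side, the prelamin A line was the farther from control at 33, 25 above and 8 below. The count at which the prelamin A line departed, alone or not, was 215 and became 340 without control 1 and 427 without the ZMPSTE24 array, and that of the progerin line was 106 and became 202 without control 2 and 192 without the ZMPSTE24 array.

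Genes at which the progerin line stood apart included ARG2, a mitochondrial arginase, at 146 and 95.0 units against 683, 696 and 669 in the prelamin A line (controls 609 and 218), and IGFBP2, a binding protein of insulin-like growth factors, at 141 and 162 units against 17.1, 17.3 and 66.2 (controls 18.9 and 16.9). ARG2 was higher in the prelamin A line by 2.38 (standard error 0.40), with its other probe set at 0.27, and IGFBP2 lower by a difference of -1.90 (standard error 0.41). At ARG2 the prelamin A arrays lay nearer control 1 than control 2, and at IGFBP2 they matched the controls except the ZMPSTE24 array, which was higher. The CD36 receptor for fatty acids showed the other pattern, both lines above control, at 2645, 1764 and 4066 units against 776 and 664 (controls 64.3 and 28.7). The secreted WNT antagonist SFRP1 was likewise above control in both, at 11955, 13552 and 13372 units against 6285 and 5038 (controls 386 and 410), with other probe sets at 0.05 and 0.64, and IL13RA2, a receptor for interleukin 13, at 7393, 3492 and 6142 against 1862 and 963 (controls 97.1 and 316). DKK2, a modulator of WNT receptors, went the other way, with 478, 372 and 1538 units against 2141 and 2466 (controls 143 and 299.9).

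**Figure D2:**
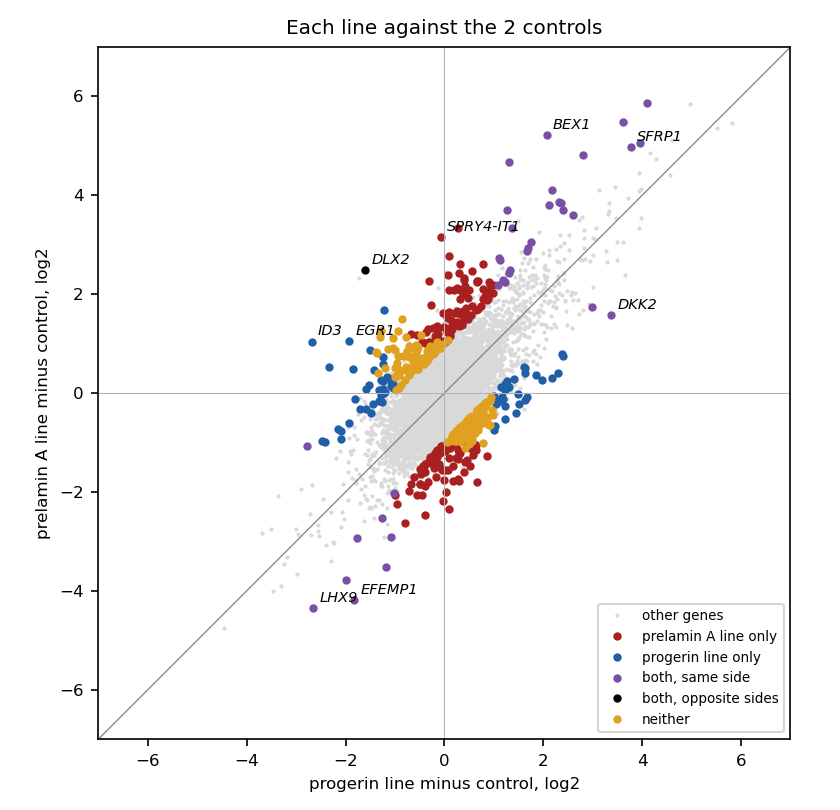
Mean log2 difference of the prelamin A line from the controls (vertical) against that of the progerin line (horizontal), 1 point per gene, with called genes coloured by which line departed. Both axes use the same 2 controls, which alone spreads points along the diagonal, so only the distance from it bears on the lines. DLX2 is the black point at the upper left, at 2.48 and -1.60.

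The ID proteins, which block basic helix-loop-helix transcription factors, and the BMP pathway that induces them had the highest median difference of the 32 pathway lists, 0.56 over 24 genes against -0.0199 over all genes. Of these 24 genes 3 were called higher and 1 lower (16.7% called, against 3.83% of all genes), and 19 had a positive difference. ID3 (chromosome 1, 23557926 to 23559501) read 12826, 8607 and 348 units in the prelamin A line, 219 and 269 in the progerin line and 1186 and 2294 on the controls. The prelamin A and prelamin A with FTI arrays were thus above both controls and the ZMPSTE24 array below them, next to the progerin line, and the difference of 3.73 had a standard error of 1.45 (unadjusted p = 0.0396 from limma). NOG, a secreted BMP antagonist that BMP signals induce, read 1225, 1856 and 412 units against 157 and 181 (controls 63.4 and 57.4), and the receptor-regulated SMAD9 read 5690, 6101 and 1335 against 1008 and 1103 (controls 878 and 702). BMPER, a BMP-binding protein, was the lower one, at 349, 624 and 1154 units against 1306 and 1476 (controls 514 and 513).

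Other members were high on the same pair of arrays and were not called. ID1 read 14766 and 11807 units with prelamin A alone and with FTI but 168 with ZMPSTE24, against 171 and 182 in the progerin line and 430 and 888 on the controls, and its difference of 4.05 had a standard error of 1.83. ID4 read 634 and 469 units but 55 with ZMPSTE24 (progerin line 74 and 54), and ATOH8, a BMP-induced transcription factor, 1751 and 1129 but 189 (progerin line 235 and 229). The inhibitory SMAD7 read 2976 and 1725 units but 563 (progerin line 791 and 539), and ID2 25874 and 25133 but 12618 (progerin line 11122 and 11412). Without the ZMPSTE24 array 9 genes of the list were called higher, and an adjusted p under 0.05 from limma was reached by 9 genes of all those tested in the higher direction and by 1 in the lower. Of the 9, 5 are on this list, ID1 (difference 6.10, adjusted p = 0.0164 from limma), ID3, ID4, NOG and SMAD9. The other 4 were DLX2, the vasoconstrictor peptide gene EDN1, SPRY4-IT1 and the pseudogene AKR1C6P, and the lower gene was IGFBP2. Without either progerin array, or without the prelamin A or the prelamin A and FTI array, 1 gene of the list was called higher.

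The ZMPSTE24 array was closer to the progerin line than to the other prelamin A arrays at 105 of the 488 called genes (21.5%; 69 higher and 36 lower), and over the 488 its median position was 82.3% of the way from the progerin line to the other prelamin A arrays. The call requires this array to lie beyond the progerin arrays, so both values are conditioned on its being on the prelamin A side, and without it 406 genes were called higher and 411 lower. Besides ID3 and DLX2, EDN1 read 2731 and 3606 units with prelamin A alone and with FTI, 441 with ZMPSTE24 and 277 and 213 in the progerin line (controls 226 and 229). SCG5, a chaperone of a prohormone convertase, read 9641, 3445 and 933 units against 480 and 349 (controls 720 and 1319), and the cardiac actin ACTC1 11224, 17384 and 1661 against 1224 and 1526 (controls 1638 and 1027). The macrophage elastase MMP12 read 3291, 341 and 159 units against 66.7 and 45.1 (controls 15.0 and 94.1), so it differed widely within the prelamin A line. MMP12 was the only one of 17 metalloproteinase and TIMP genes called (5.88%, against 3.83% of all genes, median difference 0.245). The calls of ACTC1, MMP12, ID3 and SMAD9 were lost when the controls were left out of the fit. The ZMPSTE24 gene itself read 6120, 5180 and 5779 units against 5073 and 5195 (controls 4841 and 4973), and the sources do not say whether this probe set lies in the introduced sequence.

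**Figure D3:**
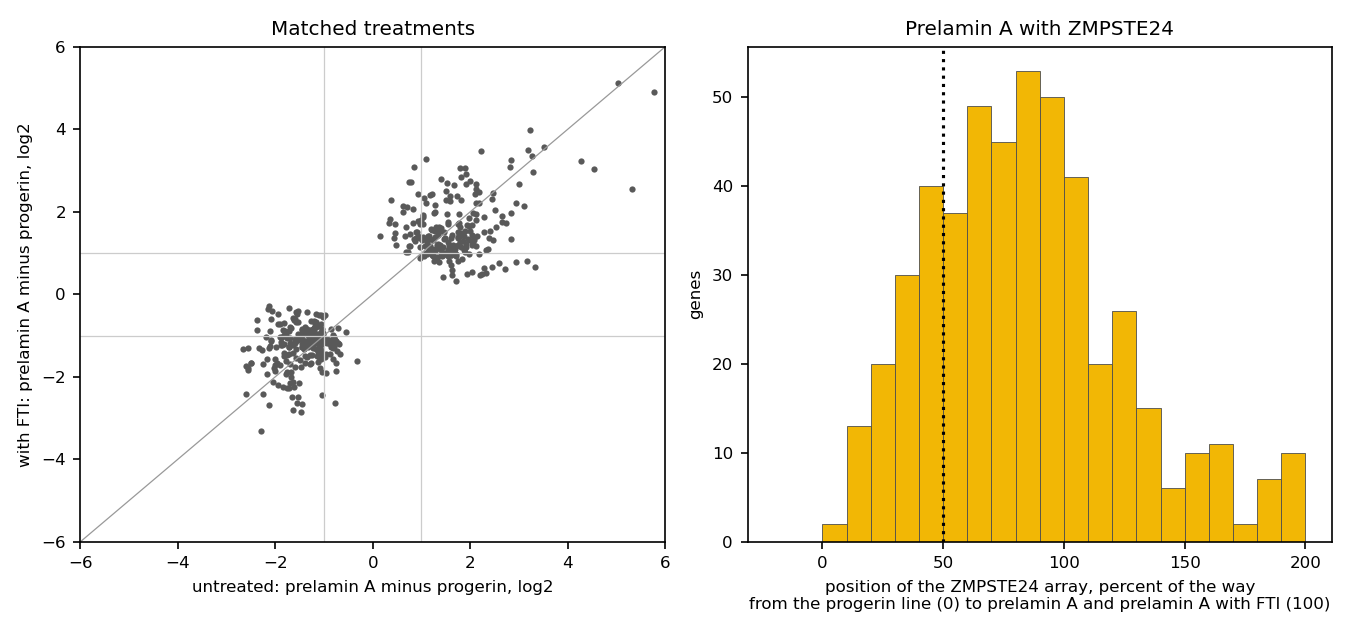
Left, difference between the lines with FTI (vertical) against that without treatment (horizontal) for the called genes, with lines at 2-fold. Right, number of called genes by the position of the ZMPSTE24 array between the progerin line (0) and the other prelamin A arrays (100), with values beyond 200 drawn in the last bar. The median lies at 82.3, and the 105 genes left of the dotted line are those closer to the progerin line.

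At matched treatment, 306 of the 488 called genes were over 2-fold apart in the same direction both untreated and with FTI, 116 only untreated, 60 only with FTI and 6 in neither. The median size of the difference was 1.47 untreated and 1.27 with FTI. The call itself used these arrays, so the counts are a description. DLX2 differed by 5.04 untreated and 5.14 with FTI. It was the only gene with an adjusted p under 0.05 in the fit to matched treatments and in that with treatment as a term (difference 5.09, adjusted p = 0.0274 from limma in both). These fits are not separate results. The ZMPSTE24 array is the only array with its own term, so it has no weight in the latter. SPRY4-IT1 differed by 3.52 and 3.58. MMP12 differed by 5.32 untreated and 2.55 with FTI, and FOXQ1, a forkhead transcription factor, by 2.44 and 0.65. FOXQ1 read 7676, 1225 and 969 units against 1401 and 773 (controls 205 and 449), so the arrays of the lines overlapped and it was not called (difference 1.00, standard error 0.90, unadjusted p = 0.307 from limma). The farnesyltransferase subunit genes were not called, FNTA at 0.12 (standard error 0.16) and FNTB at -0.19 (standard error 0.21), nor was any of 10 genes of protein prenylation and CAAX processing. Over all genes the progerin arrays differed from each other by over 2-fold at 336 genes, the prelamin A arrays at 665 to 1078 and arrays of different lines at 884 to 1527. The ZMPSTE24 array differed from the progerin arrays at 892 and 884 genes, from the array of prelamin A alone at 1078 and from that of prelamin A with FTI at 844. Its median absolute log2 difference was 0.302 and 0.288 from the progerin arrays and 0.26 and 0.227 from these prelamin A arrays, so the counts and the medians do not give the same order.

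Immediate early genes, which are transcribed within minutes of a growth factor or stress signal, had the largest share of calls of the 32 pathway lists. Of 22 measured, 6 were higher in the prelamin A line and 0 lower, 27.3% against 1.88% of all genes, with a median difference of 0.45. EGR1, a zinc-finger transcription factor (chromosome 5, 138465479 to 138469303), read 32422, 27261 and 30271 units in the prelamin A line and 4554 and 3191 in the progerin line, a difference of 2.97 (standard error 0.63), and both of its other probe sets above 100 units were higher too, by 2.66 and 2.22. FOS, a subunit of the AP-1 factor, read 1081, 526 and 422 units against 95.8 and 53.6, and IER3 11865, 3909 and 6651 against 2563 and 2825. EGR3 read 572, 132 and 139 units against 49.1 and 69.0. The MAP kinase phosphatases DUSP6 and DUSP1, which close the signal that induces them, read 2522, 1667 and 2437 units against 940 and 846, and 18474, 17462 and 18180 against 8693 and 8753. Other members gave no call: JUN read 9032, 8492 and 6849 units against 8719 and 9041, and FOSL1 777, 680 and 733 against 1364 and 900.2. Against the controls the list median was 0.10 in the prelamin A line and -0.32 in the progerin line. EGR1, FOS, EGR3 and IER3 departed from control in the progerin line only, below it. DUSP6 departed in the prelamin A line only, above control, and DUSP1 in neither line. Without the progerin array, or without the progerin and FTI array, 3 of the 22 were called.

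The controls divided at some of the same genes. EGR1 read 33045 units on control 1 and 6347 on control 2, FOS 1132 and 156, and DUSP1 13621 and 6363. At these genes control 1 was nearer the prelamin A line and control 2 nearer the progerin line. DUSP6, at 560 and 828 units on the controls, and IER3, at 11683 and 9148, did not show this. At EGR3, with 333 and 129 units on the controls, control 2 was level with the prelamin A arrays with FTI and with ZMPSTE24. Over all genes the controls were over 2-fold apart at 1181, among them 144 of the 488 called genes, and at 123 of these 144 control 1 was on the side of the prelamin A line. Further called genes of this kind were the mitochondrial superoxide dismutase SOD2, at 3858, 2096 and 4360 units against 566 and 620 (controls 4413 and 498), the ribosomal protein genes RPL27A, at 2671, 2619 and 2369 against 331 and 547 (controls 3033 and 361), and RPLP2, at 282, 227 and 284 against 78.1 and 22.4 (controls 364 and 48.8), and the mitochondrial ND6, at 2630, 2803 and 2089 against 601 and 503 (controls 2535 and 510). Of 42 cytosolic ribosomal protein genes RPLP2 was the only one called (2.38%, against 3.83% of all genes). RPL27A is not on that list. With the 144 set aside, 166 higher and 178 lower genes remained whose controls were within 2-fold. Control 1 was on the prelamin A side of control 2 at 343 of all 488 called genes (70.3%), so this limit does not remove the split. Across all genes the difference between the controls had a Pearson r of 0.286 with the difference between the lines.

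The first promoter stretches shown are those of EGR1 and DUSP1, chosen to show the elements these genes are known for. They are the 130 bases before the annotated start, 5′ to 3′ on the gene's strand, from RefSeq (GRCh38.p14), EGR1 at chr5:138465349-138465478 (plus strand) and DUSP1 at chr5:172771196-172771325 (minus strand), with CArG boxes (the serum response element core, 10 letters) and the cAMP response element TGACGTCA in capitals.
EGR1: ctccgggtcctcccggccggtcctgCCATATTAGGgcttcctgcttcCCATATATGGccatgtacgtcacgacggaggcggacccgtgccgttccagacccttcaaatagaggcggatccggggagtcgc
DUSP1: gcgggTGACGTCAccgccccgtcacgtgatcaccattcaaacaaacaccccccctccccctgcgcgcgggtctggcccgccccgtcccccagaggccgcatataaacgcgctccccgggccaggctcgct
EGR1 holds CArG boxes that begin 105 and 83 bases before the start, and DUSP1 holds TGACGTCA at 125. Among the 250 bases before the start, on both strands, a CArG box was found in 1 of the 16 immediate early genes with a promoter entry against 1.16% of 35116 promoters, and TGACGTCA in 2 of 16 against 1.65%. A match is a description of the letters and was not tested against the differences.

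Histone genes gave mostly higher calls in the prelamin A line, and genes of replication and mitosis only lower ones. The histone group was chosen after its values were seen, from a run of higher genes on chromosome 6, so its counts are a description. Of 26 histone genes measured 11 were called higher and 1 lower (42.3% higher against 1.88% of all genes), with a median difference of 1.04. All 16 on chromosome 6, between 26055740 and 27824480 in the cluster of replication-dependent histone genes, had a positive difference (median 1.16), and 8 were called, all higher and all departing in the prelamin A line only. The linker histone H1-2 read 6456, 4638 and 2821 units against 1009 and 1355 (controls 1494 and 518), H2BC4 847, 851 and 366 against 143 and 158 (controls 282 and 65.4) and H2BC12 13601, 10569 and 9591 against 4359 and 4953 (controls 7624 and 3473). H2BC12L and H2BC21, on other chromosomes, were also higher, by 1.54 and 1.20, as was H3-3A, which encodes a replacement histone, by 2.02. The variants H2AZ1, at -0.19, and H2AX, at -0.94, were not called, and the linker histone H1-10 was called lower at -1.21. The copies are near-identical in sequence and probe sets may read more than 1 of them, so single members are uncertain. Control 1 was above control 2 at 14 of the 16 genes on chromosome 6 (median 0.83). Without the progerin array 5 of the 26 were called higher.

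**Figure D4:**
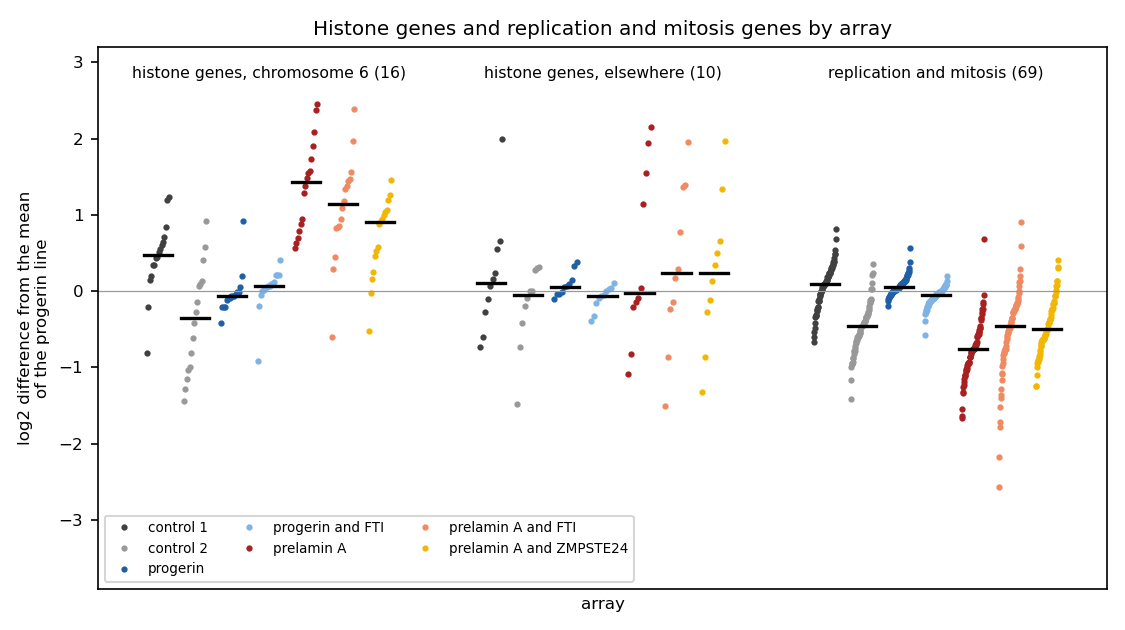
Log2 difference of each array from the mean of the progerin line, 1 point per gene and a bar at the median, for the 16 histone genes of chromosome 6, the 10 histone genes elsewhere and the 69 replication and mitosis genes. The medians of the prelamin A arrays lie above 0 for the chromosome 6 histones and below 0 for replication and mitosis, with the controls on either side of 0 for the former.

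Of 69 replication and mitosis genes 67 had a negative difference and 5 were called lower with 0 higher (7.25% against 1.96%), with a median difference of -0.57, the lowest of the lists, which was -0.85 untreated and -0.35 with FTI. The origin-loading helicase subunit MCM5 read 303, 220 and 474 units against 939 and 668 (controls 518 and 620), the checkpoint kinase BUB1B 405, 699.9 and 429 against 945 and 1132 (controls 833 and 679), and the cell cycle transcription factor MYBL2 107, 76.1 and 111 against 276 and 177 (controls 255 and 263). CCNE2, a cyclin of the G1 to S step, read 177, 119 and 480 units against 609 and 584 (controls 472 and 215), and PLK4, which controls centriole number, 110, 175 and 231 against 349.6 and 356 (controls 421 and 317). UHRF1, which carries DNA methylation through replication, was also called lower, at 529, 479 and 959 units against 1832 and 1812 (controls 1563 and 1368). The list was also higher on control 1 than on control 2, by a median of 0.58. The list was lower than control in the prelamin A line by a median of -0.39 and higher in the progerin line by 0.18. Without the progerin array 2 of the 69 were called, without the prelamin A array 3 and without the ZMPSTE24 array 12, and with each array centred on its median 1 was called while 65 stayed negative. None of 13 CDK inhibitors and D-type cyclins was called.

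Promoter stretches of these groups are shown because histone and cell cycle promoters are known for short shared elements. The 130 bases before the start are given, with the elements searched for in capitals where they occur. For H1-2 at chr6:26056471-26056600 (minus strand), H2BC4 at chr6:26123927-26124056 (minus strand) and H2BC12 at chr6:27146859-27146988 (minus strand) these were CCAAT (or ATTGG on the other strand), TATAAA and TGACGTCA. For BUB1B at chr15:40160939-40161068 (plus strand) and KIF22 at chr16:29790621-29790750 (plus strand) they were CCAAT, TTCCCGCC (the E2F site) and TTTGAA (the core of the cell cycle homology region).
H1-2: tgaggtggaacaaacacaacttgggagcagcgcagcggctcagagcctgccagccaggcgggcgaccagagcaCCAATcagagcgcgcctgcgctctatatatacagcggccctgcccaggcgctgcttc
H2BC4: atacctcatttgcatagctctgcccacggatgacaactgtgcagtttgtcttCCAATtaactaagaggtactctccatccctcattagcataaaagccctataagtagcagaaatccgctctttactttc
H2BC12: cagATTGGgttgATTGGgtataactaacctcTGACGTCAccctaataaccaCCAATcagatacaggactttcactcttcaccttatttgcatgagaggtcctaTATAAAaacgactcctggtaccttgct
BUB1B: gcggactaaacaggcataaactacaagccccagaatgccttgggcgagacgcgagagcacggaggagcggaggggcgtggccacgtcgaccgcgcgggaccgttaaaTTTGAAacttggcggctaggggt
KIF22: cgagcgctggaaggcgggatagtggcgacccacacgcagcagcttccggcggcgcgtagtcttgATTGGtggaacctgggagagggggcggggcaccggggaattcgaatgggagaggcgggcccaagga
In the 250 bases before the start, on both strands, CCAAT was found in 13 of 16 chromosome 6 histone genes and in 42 of the 60 replication and mitosis genes with an entry, against 32.0% of 35116 promoters. TATAAA was found in 10 of 16 and 4 of 60, against 10.7%, and TTTGAA in 5 of 16 and 20 of 60, against 13.3%. A CArG box can itself hold CCAAT or TATAAA, so these matches can overlap.

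Most genes of the nuclear envelope read lower in the prelamin A line. Of 21 lamins and inner nuclear envelope proteins 2 were called lower and 0 higher (9.52% against 1.96% lower in all genes), 16 had a negative difference and the median was -0.40. LMNB1, the B-type lamin whose loss marks senescent fibroblasts (chromosome 5, 126776623 to 126837020), read 84.0, 108 and 101 units in the prelamin A line against 218 and 219 in the progerin line and 234 and 279 on the controls, a difference of -1.05 (standard error 0.16, unadjusted p = 0.00041 from limma). Emerin (EMD) read 168, 272 and 195 units against 474 and 510 (controls 299 and 643). Uncalled members on the same side were TMPO (LAP2) at -0.81 (standard error 0.18) and LMNB2 at -0.82 (standard error 0.23). LMNA read 8498, 9814 and 9488 units against 16289 and 15240 (controls 9300 and 14029), at -0.77 (standard error 0.20, unadjusted p = 0.00795 from limma), which is under 2-fold. Of its 4 other probe sets above 100 units 3 were also lower and the dimmest was higher by 0.90. The sources do not place these probes relative to the introduced prelamin A and progerin sequences, so LMNA does not check the labels. The call of LMNB1 was lost with a pseudocount of 64, with median centring and without the prelamin A array.

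The elastic fibre, collagen and contractile lists gave only lower calls, 2 genes each (11.1%, 8.33% and 11.1%, against 1.96% of all genes). The adhesion list and the bone and cartilage list gave 1 higher and 1 lower call each (6.45% and 13.3% called, against 3.83%). Of 18 elastic fibre genes 14 had a negative difference and 2 were called lower, EFEMP1 and EMILIN1, which read 341, 414 and 285 units against 930 and 822 (controls 669 and 1344), and the median was -0.46. Of 24 collagen chains 2 were called lower (median -0.28). COL15A1, a basement membrane collagen, read 1002, 523 and 1212 units against 3208 and 3034 (controls 5737 and 7661), and COL6A2 15579, 10340 and 12125 against 26872 and 25208 (controls 17524 and 30856). Of 31 integrins, laminins and adhesive glycoproteins CD36 was higher and ITGA5 lower, the fibronectin receptor subunit, at 1022, 892 and 1516 units against 3112 and 3092 (controls 3403 and 4544). None of 12 small leucine-rich proteoglycans was called. Of 18 contractile genes CNN1 and SMTN were lower, by differences of -1.21 and -1.07, with CNN1 at 370, 913 and 766 units against 1324 and 1706 (controls 561 and 405). The contractile list as a whole was not lower, with 11 positive and 7 negative differences and a median of 0.113. Of 15 bone and cartilage genes the matrix phosphoprotein SPP1 was higher, at 1601, 668 and 655 units against 208 and 256 (controls 176 and 209), and the phosphatase ALPL lower, at 18.2, 91.9 and 89.5 against 200.2 and 254 (controls 89.5 and 51.9).

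Signalling lists gave scattered calls. The share called in either direction was 20% for WNT, 17.6% for the IGF axis and 10% for prostaglandin genes, against 3.83% of all genes. It was 8.82% for guidance, 7.14% for Notch and 6.06% for oxidative stress genes. For TGF-beta genes and for homeobox, T-box and forkhead factors it was near that of all genes, 4.76% and 3.45%. Of 15 secreted WNT ligands and modulators SFRP1 was higher and DKK2 and WNT2 lower. Of 17 genes of the IGF axis the protease PAPPA, which frees growth factor from its binding proteins, was higher, at 7592, 7456 and 7260 units against 2603 and 2200.2 (controls 1127 and 3041), as was the receptor substrate IRS2 by 1.19, and IGFBP2 was lower. Of 21 TGF-beta genes INHBA, the activin A subunit, was higher by 1.5. Of 34 guidance genes NTN1, SEMA4B and SEMA3C were lower, by differences of -1.25, -1.23 and -1.22, of 14 Notch genes NOTCH3 by -1.05, and of 29 homeobox, T-box and forkhead factors LHX9, at 300.1, 779 and 606 units against 1571 and 1932 (controls 12235 and 9943). Of 20 prostaglandin genes the receptors PTGER1 and PTGER3 were higher, by 1.96 and 1.30, and of 33 oxidative stress genes SOD2 and the thioredoxin reductase TXNRD1, which read 17642, 13345 and 11087 units against 6528 and 6985 (controls 4173 and 5102).

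Among metabolic and stress lists the p53 target TP53INP1 was the only one of 28 called, higher by 1.35, IDI1 was the only one of 18 cholesterol synthesis genes, higher by 1.33, while its 3 other probe sets were at 1.13, 0.36 and -0.34. The share called was 3.57% for p53 targets and 5.56% for cholesterol synthesis, against 3.83% of all genes. For hypoxia and glycolysis it was 3.45% and for oxidative phosphorylation 2.38%. Of 21 adipogenic genes CD36 was higher and FABP5 lower (9.52% called). Of 29 hypoxia and glycolysis genes 24 had a negative difference and the neuronal enolase ENO2 was called lower by -1.05 (median -0.39), and of 42 oxidative phosphorylation subunits ATP5F1D was lower by -1.02. None was called among 29 secreted factors of senescent cells, 38 interferon response genes, 20 HOX genes, 26 genes of the unfolded protein response or 16 amine, alcohol and aldehyde enzymes. Of the markers of other cell types measured, 37.5% of 8 for pericytes and smooth muscle, 28.6% of 7 for neurons and glia, 20% of 5 for HEK293 cells and 50% of 2 for melanocytes were called in either direction, against 3.83% of all genes. The melanocyte factor MITF was higher by 1.07 while TYR, PMEL, TYRP1, SOX10 and MLANA were below 100 units on every array, and of the pericyte and smooth muscle markers RGS5 was higher by 1.47, CNN1 and NOTCH3 were lower, and DES and MYH11 were below 100 units on every array. No endothelial, keratinocyte, leukocyte or adipocyte marker was called (3, 2, 4 and 2 measured). In these bulk samples fewer cells of a type and less RNA per cell cannot be told apart.

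**Figure D5:**
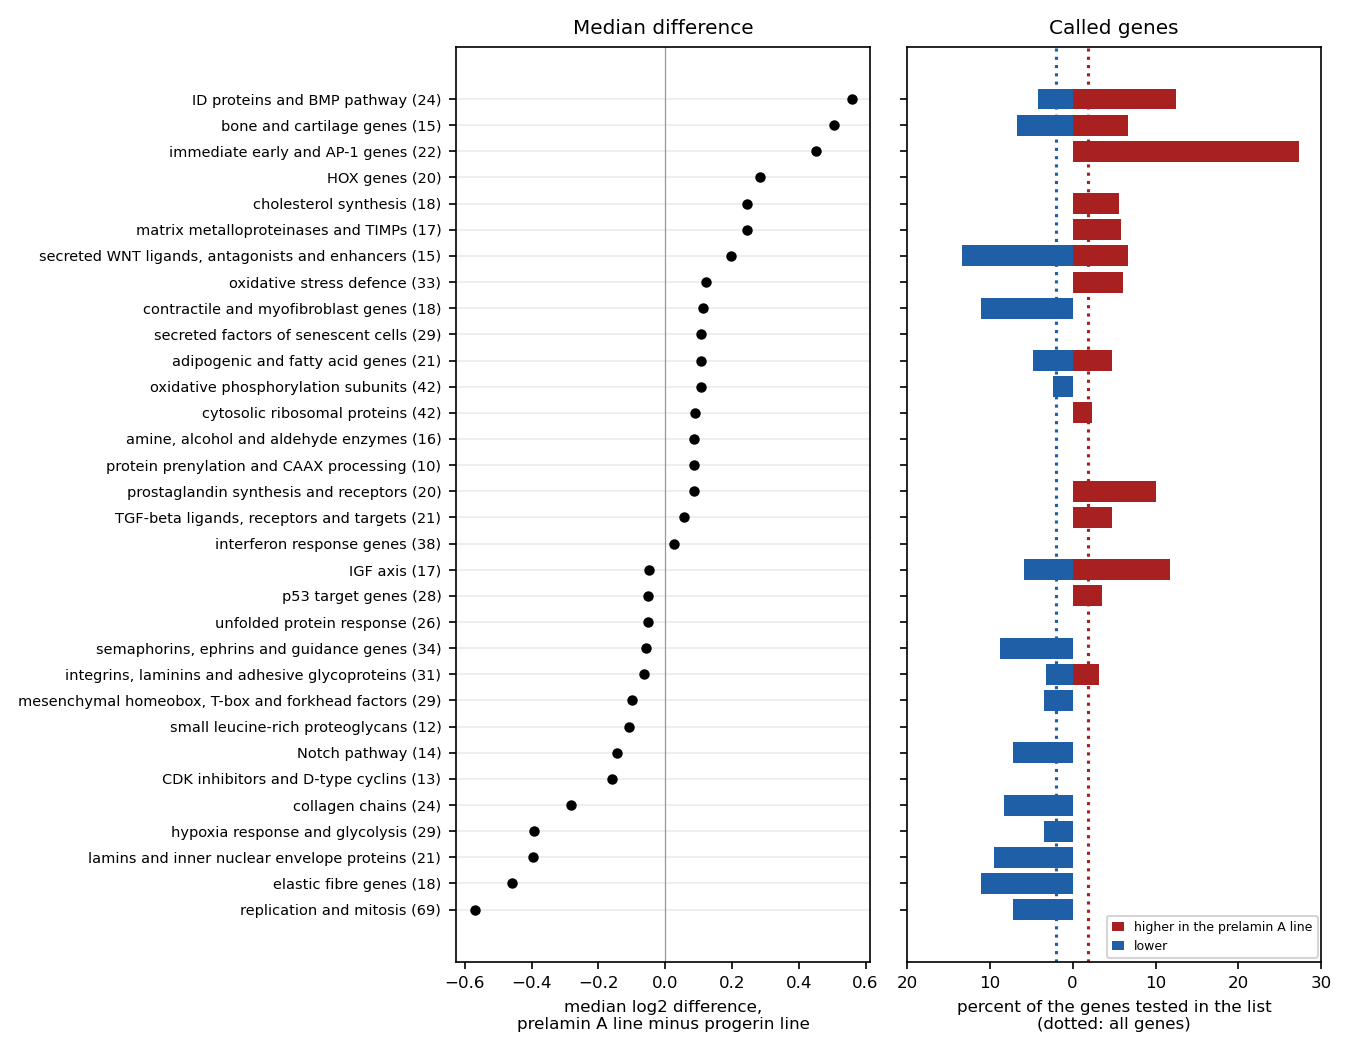
Left, median log2 difference between the lines for each of 32 gene lists, with the number of genes tested in brackets. Right, percent of each list called higher (red) or lower (blue) in the prelamin A line, with dotted lines at the shares over all genes, 1.88% and 1.96%. Immediate early genes reach 27.3%, and the medians run from -0.57 for replication and mitosis to 0.56 for the ID and BMP genes.

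By position, the chromosome medians ran from -0.175 on chromosome 19 to 0.0644 on chromosome 4. On chromosome 19, 5 of 864 genes tested were called higher and 37 lower (4.86% called). On chromosome 4 it was 17 and 12 of 478 (6.07% called), against 3.83% of all genes. With each array centred on its median chromosome 19 had 6 higher and 26 lower and a median of -0.10. Called lower genes were also short, with a median span of 16 kb against 29.4 kb for called higher genes and 29.8 kb for all genes tested. Among 1130 windows of 50 neighbouring genes the lowest median was -0.44, on chromosome 11 from 65572538 to 67258082 with 0 higher and 3 lower, and the highest was 0.37, on chromosome 12 from 71125096 to 94307675 with 4 higher and 1 lower. The window on chromosome 6 from 18223860 to 27824480 held the histone genes and had 9 higher and 0 lower. Farther along 6p the class I gene HLA-G was called lower, at 2477, 2979 and 2590 units against 8385 and 8349 (controls 5271 and 10469), as was the peptide transporter TAP2 by -1.30. These were picked after their values were seen. HLA-B and HLA-C were at -0.66 and -0.56 and B2M, the partner chain on chromosome 15, at 0.25, with no call, and class I probe sets may read more than 1 gene.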

How the data were processed

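Total RNA of human dermal fibroblasts was hybridised to 7 Affymetrix U133 Plus arrays. The authors deposited 1 table of intensity values, a MAS 5.0 signal for every probe set on each array (no version is given in the submitters' processing notes), after background correction and scaling in that software. The mean signal trimmed by 2% at each end was 500.1 on every array, and the scaling target in the files is therefore not that of the methods. Probe-level data were not used, so the methods' S-score test was not run. Precision is limited by the number of arrays.

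Of 54675 probe sets, 62 were array controls, 41091 had 1 gene in the platform annotation, 1801 several and 11721 none, and 41037 of those with 1 gene were matched by gene ID to RefSeq (GRCh38.p14). The log2(signal + 16) values went into limma 3.58.1 under R 4.3.3 (lmFit, eBayes; Benjamini-Hochberg) in 3 groups, control (2 arrays), progerin line (2) and prelamin A line (3), with 4 residual and 2.51 prior degrees of freedom, so that what the treatments do counts as spread. A permutation of 3 arrays against 2 cannot go below 0.2 and was not used. Because no gene passed the adjusted threshold, the wider call stood in for it.

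The comparison, the 32 gene lists, the 9 marker lists and the tests were chosen with earlier results of these data known. Named genes were, among called genes, the 12 largest differences and 5 smallest p-values per direction, the 8 largest per class of departure, up to 4 per list, and LMNA, ZMPSTE24, FNTA, FNTB and FOXQ1. Not all of them are named, and the histone, HLA, further ID and BMP, immediate early and nuclear envelope genes, UHRF1 and TAP2 were named after their values were seen. Promoter entries matched 81.4% of genes tested but 77.3% of those called higher and 76.7% of those called lower, so a check of their base composition is void. The fit was tested on simulated data.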

Additional observations from a re-analysis of the deposited data

Results flagged for a closer look

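DLX2 was the only called gene at which the lines lay on opposite sides of both controls, the prelamin A line above (2.48) and the progerin line below (-1.60). The test of the difference between the lines gave 4.08 (standard error 0.92, unadjusted p = 0.00364 from limma), and all 3 prelamin A arrays were above, and both progerin arrays below, either control. The ZMPSTE24 array, at 82.9 units, was close to the controls, at 60.8 and 51.2, and the progerin signals of 13.7 and 2.98 are under the minimum of 100, so the size below control depends on the pseudocount. The other DLX2 probe set gave a difference of 0.05 between the lines. Groups held 2 or 3 arrays, too few to look for single arrays that stand apart.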

How the results depend on the processing

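No analysis paired by replicate number was run, each condition having 1 array. The lines do share untreated and FTI conditions, which the fits with treatment as a term and with matched treatments only used. Adjusted p-values under 0.05 stayed at 0 in both directions, except for 1 higher gene (DLX2) with treatment as a term and with matched treatments only. For this test these fits weigh the same arrays and are not separate results. Leaving out each array gave 0 to 9 higher and 0 to 1 lower, all 10 without the ZMPSTE24 array. An unadjusted p under 0.01 with over 2-fold gave 116 higher and 141 lower, and an unadjusted p under 0.05 with over 2-fold gave 244 and 251. The wider call (239 higher, 249 lower) became 151 and 146 with a pseudocount of 64, 624 and 616 over every probe set and 410 and 399 with matched treatments only, and 447 were higher with no signal filter. Leaving out each array gave 189 to 406 higher and 175 to 411 lower, the most without the ZMPSTE24 array. With a pseudocount of 64 the prelamin A line departed at 133 genes and the progerin line at 49, with no limit on size the progerin line at 248, and leaving out each array gave 162 to 427 and 95 to 202. Histone genes called higher numbered 5 to 12 with each array left out, immediate early genes 3 to 6, and ID and BMP genes 1 to 9, the last also 5 with treatment as a term and 9 with matched treatments only. Replication and mitosis genes called lower numbered 2 to 12 with each array left out, 2 with a pseudocount of 64, 2 with quantile normalization, 1 with median centring, 12 over every probe set, 8 with treatment as a term and 11 with matched treatments only. Of 1869 differences of the 94 named genes under the alternatives, 1683 kept their direction and call, 184 lost the call, 1 gained it and 1 turned, that of FNTA, which ran from -0.022 to 0.26 with each array left out, lowest without the progerin array. The cause of these shifts was not tested. For 40 of the 94 no alternative changed the call. Dim genes are limited by signal near background, which the pseudocount sets.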
